A study of Arabidopsis thaliana with 9 samples.

Results

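The superoxide dismutases of Arabidopsis thaliana are described here with the chaperone that loads copper into some of them. The 8 genes were chosen by name: the copper/zinc enzymes CSD1, CSD2 and CSD3, the iron enzymes FSD1, FSD2 and FSD3, the manganese enzyme MSD1 and the copper chaperone CCS1. All 8 were found among the 26973 genes of the expression table, and all 8 passed the filter on low values that 19955 genes passed. RNA-seq had been performed on whole seedlings of OXmiR400, OXrPPR1 and wild type, with 3 libraries per genotype, and the sample titles of all 3 genotypes begin with Colombia. Every seedling sample, wild type included, had been treated with cadmium, a heavy metal toxic to plants, at 100 µM over 6 h. No untreated sample was analysed here, so each difference is one between genotypes under cadmium. For either construct, the sources used here give neither the promoter nor the number of independent lines. Nothing in the labels ties a genotype's libraries to separate cultures, and the p-values thus cover a spread between libraries that may be technical.

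Superoxide dismutases convert superoxide, a reactive by-product of respiration and photosynthesis, into hydrogen peroxide and oxygen. In Arabidopsis, CSD1 is cytosolic, CSD2 plastidic, CSD3 peroxisomal and MSD1 mitochondrial, while the iron enzymes belong mainly to the plastid. When copper is scarce, the transcription factor SPL7 activates FSD1 and miR398 genes, though not necessarily all of the latter. miR398 directs the loss of CSD1, CSD2 and CCS1 transcripts, so that the iron enzyme can stand in for the copper ones. miR400, the microRNA named in the label OXmiR400, is known for targeting transcripts of pentatricopeptide repeat (PPR) proteins, which bind organelle RNA.

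The sequences of these microRNAs and of their best matches in the family are shown because they separate the transcripts that miR398 is known to target from the rest. They were read from the TAIR10.1 genome at the positions of the RefSeq annotation, written as DNA from 5′ to 3′, with the seed (bases 2 to 8) in capitals. The miR398 forms share 1 seed and differ at the last base.
miR400: tATGAGAGtattataagtcac
miR398a: tGTGTTCTcaggtcacccctt
miR398b and miR398c: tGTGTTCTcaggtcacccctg
miR400 lies at chr1:11785947-11785967, miR398a at chr2:1041012-1041032, miR398b at chr5:4691107-4691127 and miR398c at chr5:4694778-4694798, all on the plus strand.

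Matches were searched in the RefSeq transcripts of 24200 genes, with a penalty of 1 for a mismatch or an extra transcript base and 0.5 for a G:U pair. In the best miR398a matches below, capitals mark bases in Watson-Crick pairs with the microRNA, and lower case marks mismatches, G:U pairs and the extra base of a bulge.
CSD1: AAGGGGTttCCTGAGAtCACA
CSD2: tgcGGGTGACCTGgGaAACAtA
CCS1: AttGGGaGACCTGgGAACACt
COX5B-1: AAGGtGTGACCTGAGAAtCACA
FSD1: AAGGcaaGcCCTtAGAgCACA
The CSD1 match lies in the 5′ UTR at chr1:2827177-2827685 on the plus strand and is joined from separate exons, so the genomic span is longer than the match. The CSD2 match is coding, at chr2:12015572-12015593 on the plus strand, and that of CCS1 is coding, at chr1:4267521-4267541 on the minus strand. COX5B-1 (AT3G15640), a subunit gene of mitochondrial cytochrome c oxidase and a further known miR398 target, carries its match in the 5′ UTR at chr3:5299204-5299225, plus strand. The FSD1 match is coding, at chr4:12885549-12885569 on the minus strand.

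The penalty was 2.0 for COX5B-1, a value that 2 genes reached, and 3.0 for CSD1, which 3 genes reached. CSD2 and CCS1 each scored 4.5, a value that 90 genes reached. Against miR398b and miR398c the penalty was 3.0 for COX5B-1, reached by 3 genes, 4.0 for CSD1 and CSD2, reached by 17, and 4.5 for CCS1, reached by 57. For miR398a, FSD1 scored 5.5 (997 genes), FSD2, FSD3 and MSD1 7.0 (12859 genes) and CSD3 7.5 (18915 genes). For miR398b and miR398c, FSD1 scored 6.5 (5344 genes), FSD3 and CSD3 7.0 (11006 genes) and FSD2 and MSD1 7.5 (17573 genes). Such scores were within reach of many transcripts. Against miR400, the 8 genes scored between 6.5 for CSD2, a value reached by 10144 genes, and 7.5, reached by 21945. The known miR400 target PPR1 (AT1G06580) scored 0.0, which no other gene reached. These matches describe letters only and do not show that a site is used.

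Transcript level was taken as FPKM, a read or fragment number corrected for exon length and for library size. The unit was inferred from the values, since no label or header names it. The sequencing depth rebuilt from the table was 15.6 to 17.1 M units in OXmiR400, 19.3 to 21.1 M in OXrPPR1 and 12.7 to 17.2 M in wild type. A unit was set at 4 of the steps on which low values fell and was taken as a read or read pair. This was assumed and not checked against read counts. The 8 genes held between 141 units (FSD2, wild type replicate 1) and 14920 units (FSD1, OXrPPR1 replicate 3) per library. MIR400 was listed at 629 to 953 FPKM in OXmiR400 libraries and at 0.572 FPKM or less in wild type, and PPR1 at 21.9 to 25.5 FPKM in OXrPPR1 libraries, against 2.17 to 2.54 FPKM in wild type. OXrPPR1 replicate 3 stood apart from the other libraries of its genotype in several of the genes below.

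The iron enzyme FSD1 dominated the family. Over the 9 libraries it averaged 417 FPKM, ahead of MSD1 at 141 FPKM in 9 of 9 libraries. CSD3 (55.3 FPKM) and CSD1 (52.6 FPKM) followed. Their ranges overlapped, and CSD3 was the higher of the pair in 7 of 9 libraries. CCS1 averaged 22.4 FPKM, above the mean of 15.9 FPKM for CSD2 and higher in 9 of 9 libraries. CSD2 and FSD3, at a mean of 15.4 FPKM, could not be ordered, since CSD2 was the higher in only 3 of 9 libraries. FSD2 was the lowest member with a mean of 10.1 FPKM, below FSD3 in 9 of 9 libraries. The order is a comparison per length of transcript, not of protein or enzyme activity.

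**Figure D1:**
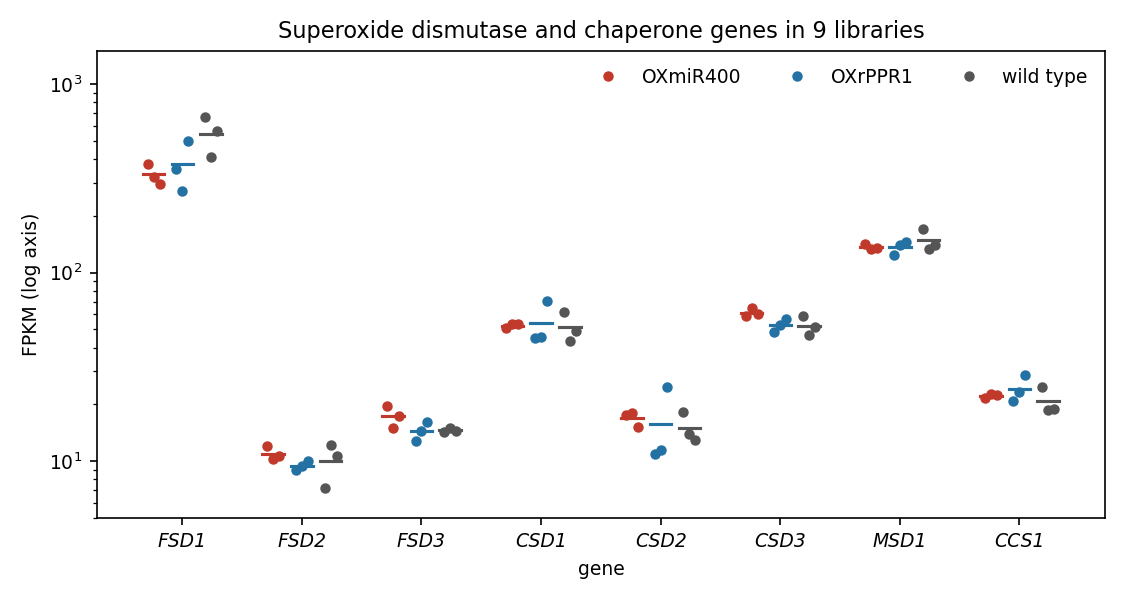
FPKM (log axis) of the 8 genes in each of 9 libraries, coloured by genotype, with a bar at each genotype's mean of 3 libraries. FSD1 lies highest, with means of 331, 375 and 545 FPKM in OXmiR400, OXrPPR1 and wild type, and FSD2 lies lowest.

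The first question was whether the family differed between seedlings with high miR400 precursor and wild type. FSD1 had the lowest log2 difference of the family, and its level was lower in each OXmiR400 library than in any wild type library. That pattern was held by 13.5% of tested genes, and the FSD1 difference did not pass the test across all genes. No other member passed even without adjustment. At an adjusted p under 0.05 (limma, Benjamini-Hochberg over 19955 genes), 0 of the 8 genes were called, where 0.571% of all tested genes were. At an unadjusted p under 0.05 there was 1 of 8, FSD1, against a background of 15.9%, so the count is near that share.

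FSD1 (AT4G25100, chr4:12884300-12887011, minus strand, TAIR10.1), the plastid iron superoxide dismutase that serves as the textbook readout of copper supply, measured 377, 322 and 295 FPKM in OXmiR400, against 664, 408 and 564 FPKM in wild type. The groups did not overlap, although OXmiR400 replicate 1 and wild type replicate 2 lay close together. Mean levels were 331 ± 41.8 FPKM in OXmiR400 and 545 ± 129 FPKM in wild type (SD, n = 3 each). On the log2(FPKM + 1) scale the difference was -0.70 ± 0.24 (SE), with a 95% confidence interval of -1.23 to -0.16 and a limma p of 0.0156, or 0.199 after adjustment. All libraries lying lower was a pattern shared by 13.5% of tested genes in this comparison. Leaving out any 1 library kept the log2 difference between -0.89 and -0.54, and the adjusted p between 0.121 and 0.440.

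The levels of organ markers are given beside the FSD1 values. The summed level of 9 root markers was 40.1 to 44.7 FPKM in OXmiR400 and 68.7 to 86.6 FPKM in wild type, and that of 10 green tissue markers, was 29200 to 36600 FPKM in OXmiR400 and 19800 to 25200 FPKM in wild type. No marker of either list was at 0 in any library. None of the 9 root markers and none of the 10 green tissue markers was called singly (lowest adjusted p 0.0929 and 0.0609 in limma), where 0.571% of tested genes were. In these lists 6 and 5 had an unadjusted p under 0.05, where 15.9% of all tested genes did. Of the 9 root markers 7 had a log2 difference below 0, and CASP4 and CASP5 lay above it (0.19 ± 0.23 and 0.11 ± 0.45, SE), although the mean FPKM of CASP5 was slightly lower in OXmiR400. All 10 green tissue markers lay above 0. The part of these markers in the FSD1 difference was not tested. In whole seedlings, fewer cells of a type and less RNA per cell cannot be told apart.

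The other plastid iron enzymes did not share the direction of FSD1. FSD3 (AT5G23310, chr5:7850444-7852534, plus strand) measured 19.7, 14.9 and 17.3 FPKM in OXmiR400, against 14.2, 15.0 and 14.4 FPKM in wild type. The second OXmiR400 value fell inside the wild type range, and the difference of 0.23 ± 0.12 (log2, SE) had an adjusted p of 0.405 in limma. FSD2 (AT5G51100, chr5:20773235-20775739, minus strand) measured 12.0, 10.2 and 10.6 FPKM in OXmiR400, against 7.21, 12.2 and 10.6 FPKM in wild type. The wild type libraries alone spanned all OXmiR400 values, and without wild type replicate 1 the log2 difference of 0.14 became -0.06. FSD2 and FSD3 are known to associate with the plastid-encoded RNA polymerase. Of 10 other proteins of that complex 0 were called, where 0.571% of tested genes were (median log2 difference 0.04, all tested genes -0.02). The smallest p among them belonged to PTAC7, with 56.4, 58.9 and 50.0 FPKM in OXmiR400, against 42.1, 41.0 and 45.1 FPKM in wild type (0.36 ± 0.10 log2, SE, adjusted p = 0.13 in limma). It was followed by the thioredoxin TRXZ (0.25 ± 0.14 log2, adjusted p = 0.442). In OXrPPR1 against wild type the same genes led, at 0.23 ± 0.10 for PTAC7 and 0.28 ± 0.14 for TRXZ (adjusted p = 0.459 and 0.536), and between the lines PTAC7 and PTAC12 did, at 0.13 ± 0.10 and 0.11 ± 0.13 (adjusted p = 0.855 and 0.929).

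Among the copper/zinc enzymes, CSD1 (AT1G08830, chr1:2827060-2829315, plus strand) measured 50.7, 53.1 and 53.2 FPKM in OXmiR400, against 61.8, 43.5 and 49.2 FPKM in wild type. The OXmiR400 libraries lay tightly inside the wild type range. The log2 difference was 0.04 ± 0.18 (SE), with a 95% interval of -0.37 to 0.44. CSD2 (AT2G28190, chr2:12014412-12016569, plus strand) measured 17.6, 18.0 and 15.1 FPKM in OXmiR400, against 18.1, 13.9 and 12.9 FPKM in wild type. Its log2 difference of 0.17 ± 0.27 (SE) carried the widest interval of the family, -0.44 to 0.79, so a change of moderate size in either direction was not detectable with these libraries. CSD3 (AT5G18100, chr5:5987187-5988885, plus strand) measured 58.5, 64.7 and 60.1 FPKM in OXmiR400, against 59.1, 46.5 and 51.4 FPKM in wild type. Only wild type replicate 1 kept the groups from separating, and the log2 difference was 0.23 ± 0.11 (SE, adjusted p = 0.361 in limma). CSD1 shares 211 bases with a gene on the other strand, AT1G08840, and CSD3 shares 405 and 142 bases with AT5G02875 and AT5G18110, so that reads of these genes may be mixed. The sources used here do not give the handling of strand.

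MSD1 (AT3G10920, chr3:3417940-3419892, plus strand), the mitochondrial enzyme, measured 142, 134 and 135 FPKM in OXmiR400, against 171, 134 and 140 FPKM in wild type. Apart from wild type replicate 1 the values lay within a narrow band, and the log2 difference was -0.10 ± 0.12 (SE, adjusted p = 0.716 in limma). CCS1 (AT1G12520, chr1:4267074-4268982, minus strand), which inserts copper into the copper/zinc enzymes, measured 21.6, 22.7 and 22.3 FPKM in OXmiR400, against 24.7, 18.6 and 18.8 FPKM in wild type. The OXmiR400 values fell between the wild type extremes, and the log2 difference was 0.11 ± 0.14 (SE, adjusted p = 0.757 in limma). Over the 8 genes, the median log2 difference was 0.12, with 6 above 0 and 2, FSD1 and MSD1, below it.

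**Figure D2:**
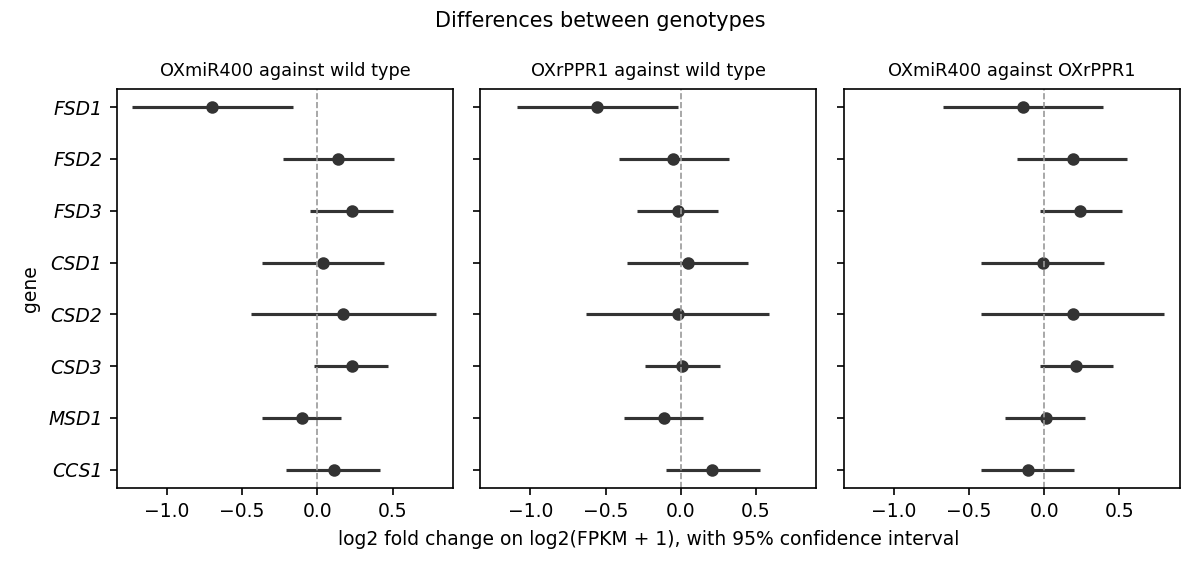
Log2 differences on log2(FPKM + 1) with 95% confidence intervals from limma, for each gene, with 1 panel per comparison (each line with wild type, then OXmiR400 with OXrPPR1). FSD1 is the member whose interval lies below 0 against wild type, at -0.70 in OXmiR400 and -0.56 in OXrPPR1, and neither passed the adjusted threshold.

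Whether the line with high PPR1 differed from wild type was the next comparison. FSD1 again had the lowest log2 difference of the family, but its libraries overlapped with those of wild type, and no other member passed even without adjustment. Of the 8 genes 0 were called, where 0.0651% of tested genes were. An unadjusted p under 0.05 was held by 1, FSD1, against a background of 10.5%, so the count is near that share. The libraries of 0 of the 8 genes lay apart from wild type, a pattern that 14.7% of tested genes had. Both lines were set against the same wild type libraries, so their differences are not independent of each other.

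FSD1 measured 355, 271 and 499 FPKM in OXrPPR1, against 664, 408 and 564 FPKM in wild type. OXrPPR1 replicate 3 reached into the wild type range, and replicates 1 and 2 lay below it. The log2 difference was -0.56 ± 0.24 (SE), with a 95% interval of -1.09 to -0.02 and a limma p of 0.0426, or 0.457 after adjustment. It became -0.78 without OXrPPR1 replicate 3, and over all alternatives it lay between -0.78 and -0.35, with adjusted p from 0.207 to 0.794. The root markers summed to 56.1 to 96.4 FPKM in OXrPPR1, spanning the wild type range. The green tissue markers summed to 24800 to 29300 FPKM, of which the lower end fell inside the wild type range. Singly, 0 markers were called, where 0.0651% of tested genes were. Of the 9 root markers 5 lay above 0, and of the 10 green tissue markers 9 did. An unadjusted limma p under 0.05 was held by CASP4 (0.63 ± 0.23 log2, SE), by 2 green tissue markers above 0 and by LHCB2.1 below it (-0.47 ± 0.15). Of all tested genes 10.5% had one. The part of these markers in the FSD1 value was not tested.

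CSD1, CSD2 and CCS1 shared 1 feature in OXrPPR1, a high value in replicate 3. CSD1 measured 45.2, 45.6 and 71.0 FPKM, CSD2 10.9, 11.5 and 24.8 FPKM and CCS1 20.7, 23.3 and 28.6 FPKM, and replicate 3 was the highest of all 9 libraries for each of these genes. The log2 difference of CSD2 from wild type was -0.02 ± 0.27 (SE) with that library and -0.38 without it, and that of CSD1 was 0.05 ± 0.18 and -0.16. Neither was called in either case (adjusted p = 0.337 for CSD2 and 0.635 for CSD1 without it, in limma). CCS1 had a log2 difference of 0.21 ± 0.14 (SE, adjusted p = 0.626), which became 0.09 without that library. CSD3, at 48.5, 52.6 and 56.7 FPKM, stayed within the wild type range, with a log2 difference of 0.01 ± 0.11 (SE).

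MSD1 measured 124, 140 and 146 FPKM in OXrPPR1 and differed from wild type by -0.11 ± 0.12 (log2, SE, adjusted p = 0.778 in limma). FSD2 measured 8.93, 9.37 and 10 FPKM in OXrPPR1 and FSD3 12.7, 14.4 and 16.2 FPKM. Their log2 differences from wild type were -0.05 ± 0.16 and -0.02 ± 0.12 (SE). The median over the 8 genes was -0.02, equal to that of all tested genes.

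Set against each other, the lines showed no difference in any member that passed the test, 0 of 8 against 0.0651% of tested genes. At an unadjusted p under 0.05 there were 0 of 8 too, where 7.41% of tested genes passed. CSD3 and FSD2 were higher in each OXmiR400 library than in any OXrPPR1 library, a pattern of higher libraries that 5.9% of tested genes had. For CSD3 the log2 difference was 0.21 ± 0.11 (SE, adjusted p = 0.722 in limma) and for FSD2 0.19 ± 0.16 (adjusted p = 0.880). FSD3 had the largest value, 0.24 ± 0.12 (adjusted p = 0.721), with overlapping libraries. FSD1 differed by -0.14 ± 0.24 with a 95% interval of -0.67 to 0.39, which holds differences of either sign.

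The makeup of the dismutase transcript pool was described from the same values and adds no independent evidence. The 7 dismutase genes summed to 678, 616 and 586 FPKM in OXmiR400, 605, 544 and 823 FPKM in OXrPPR1, against 995, 673 and 843 FPKM in wild type. FSD1 made up 50.3% to 55.6% of the sum in OXmiR400, 49.8% to 60.5% in OXrPPR1 and 60.6% to 66.9% in wild type. MSD1 made up 21.0% to 23.1% in OXmiR400, 17.7% to 25.7% in OXrPPR1 and 16.6% to 19.9% in wild type. FSD1 and CSD2 are known to respond in opposite ways to copper supply. The ratio of FSD1 to CSD2 was 21.4, 17.9 and 19.5 in OXmiR400, 32.6, 23.7 and 20.1 in OXrPPR1 and 36.6, 29.4 and 43.8 in wild type. The OXmiR400 ratios all lay below the wild type ones, while OXrPPR1 replicate 1 lay within the wild type range, replicate 3 within the OXmiR400 range and replicate 2 between them.

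**Figure D3:**
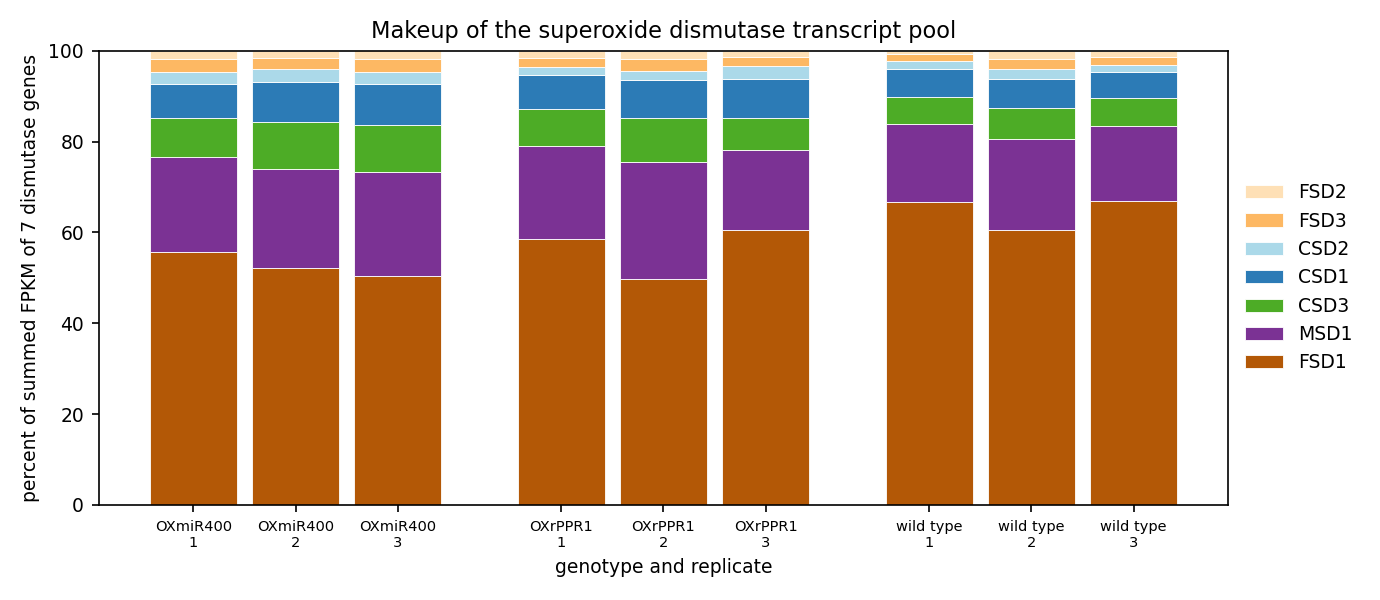
Percent of the summed FPKM of 7 superoxide dismutase genes taken by each gene, as stacked bars for each library of OXmiR400, OXrPPR1 and wild type. The FSD1 segment spans 50.3% to 55.6% in OXmiR400 and 60.6% to 66.9% in wild type.

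Across libraries, the miR398 targets were compared with each other and with the remaining members. Of 36 gene pairs among the 8 genes and COX5B-1, CSD1 and CSD2 had the closest relation over the 9 libraries, with Pearson's r = 0.885 (exact permutation p = 0.00141, adjusted p = 0.0254 over the 36 pairs). Spearman's rho was 0.85 (exact permutation p = 0.00607), which did not pass after adjustment (0.206). Without OXrPPR1 replicate 3 and wild type replicate 1, the libraries farthest from the CSD1 median, r was 0.731, and after the genotype means were removed it was 0.914. MSD1 and COX5B-1, which share the mitochondrion but not miR398, reached r = 0.841 (exact permutation adjusted p = 0.0254), with rho = 0.733 (adjusted 0.224). Their r was 0.728 without OXrPPR1 replicate 1 and wild type replicate 1, the libraries farthest from the MSD1 median. After the genotype means were removed, r for MSD1 and COX5B-1 was 0.838. CSD1 and CCS1 had r = 0.843 (exact permutation adjusted p = 0.0508). It dropped to 0.453 without OXrPPR1 replicate 3 and wild type replicate 1, so that relation over all libraries rests on them. After the genotype means were removed it was 0.929. CSD1 and COX5B-1 had r = 0.848 (exact permutation adjusted p = 0.0522) and rho = 0.567 (adjusted 0.29), with r = 0.464 without those libraries and 0.909 after the genotype means were removed. High values of this last kind were not confined to pairs of miR398 targets. With the genotype means removed, r was 0.901 for CSD3 and CCS1, 0.891 for MSD1 and CCS1 and 0.887 for FSD1 and COX5B-1. Other such pairs were lower, as for FSD1 and MSD1 (0.607) or FSD2 and CCS1 (-0.522). The target pairs without CSD1 had lower r, at 0.789 for CSD2 and COX5B-1, 0.700 for CSD2 and CCS1 and 0.636 for CCS1 and COX5B-1. None of these passed (exact permutation adjusted p = 0.068, 0.157 and 0.245). FSD1, which is not a known miR398 target, had r = 0.779 with COX5B-1 (exact permutation adjusted p = 0.0858). No Spearman value among the 36 pairs passed after adjustment.

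**Figure D4:**
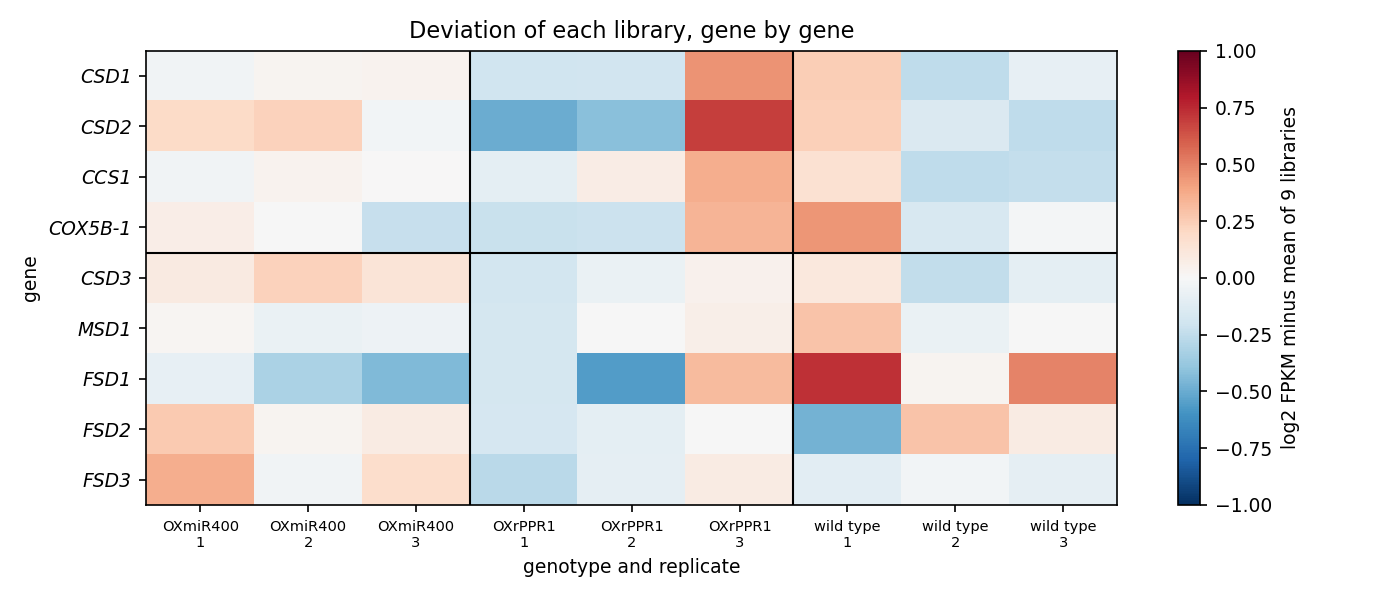
Log2 FPKM of each gene minus its mean over the 9 libraries, in columns by genotype and replicate, with the miR398 targets above the horizontal line and the other members below. OXrPPR1 replicate 3 is the highest library for CSD1, CSD2 and CCS1, and wild type replicate 1 is the highest for FSD1 and the lowest for FSD2.

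The likeness of other genes to CSD2 and FSD1 was ranked by Pearson's r on log2(FPKM + 1) among 13648 genes whose mean reached 5 FPKM in every genotype, as a description over 9 libraries that differ in depth and genotype. The closest to CSD2 were the protein kinase gene AT3G15220 (r = 0.963), the efflux family gene AT5G65380 (0.955) and RPL3P, a plastid ribosomal protein (0.942). CSD1 ranked 28 among them, COX5B-1 200 and CCS1 554. The closest to FSD1 were ATC, a relative of TERMINAL FLOWER 1 (0.978), the transmembrane protein gene AT1G70770 (0.971) and NAPRT1, an enzyme of NAD salvage (0.968). For FSD1, COX5B-1 ranked 755 (r = 0.779), MSD1 1637, CSD1 3369, CSD2 4480 and CCS1 6976.

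Of the 3 miR398 loci, MIR398A and MIR398B were not among the 26973 genes listed, so they had no level to read. Only MIR398C had one, and it gave little signal. MIR398C measured 5.48, 5.59 and 4.78 FPKM in OXmiR400, 14.1, 4.59 and 8.01 FPKM in OXrPPR1, against 1.72, 4.06 and 7.33 FPKM in wild type. These values rest on 2.5 to 34.3 units per library from poly(A) RNA and do not measure mature miR398. The log2 differences from wild type were 0.37 ± 0.43 in OXmiR400 and 0.91 ± 0.43 in OXrPPR1 (SE, adjusted p = 0.723 and 0.503 in limma). COX5B-1 measured 41.3, 39.3 and 33.7 FPKM in OXmiR400, 33.8, 34.1 and 50.1 FPKM in OXrPPR1, against 53.6, 35.3 and 39.0 FPKM in wild type, with overlapping groups and adjusted p = 0.76 and 0.87.

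SPL7 binds GTAC, and this word, which reads the same on both strands, was searched in the 250 bases before each annotated start. It occurred once before FSD1, at -145, and also before CSD3 and CCS1, with 2 adjoining copies before CSD1 and 0 before CSD2, FSD2, FSD3 and MSD1. At least 1 copy stood before 34.9% of 26511 genes. Among the microRNA genes, MIR398A had 0 copies, MIR398B 5 and MIR398C 3, and at least 3 stood before 1.49% of genes. The FSD1 window is shown because FSD1 has the lowest log2 difference of the family in both lines; it spans chr4:12887012-12887261, minus strand, TAIR10.1, with GTAC in capitals.
FSD1 window: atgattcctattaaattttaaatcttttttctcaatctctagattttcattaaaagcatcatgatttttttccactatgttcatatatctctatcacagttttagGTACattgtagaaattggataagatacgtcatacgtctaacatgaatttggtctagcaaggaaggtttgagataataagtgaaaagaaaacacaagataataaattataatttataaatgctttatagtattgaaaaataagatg
The match is a description of letters and says nothing of binding.

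The copper homeostasis genes were read next, since they share regulators with FSD1 and the miR398 loci. Of 28 listed genes 25 were tested. In OXmiR400 against wild type 1 fell, FRO5, where 0.356% of tested genes did, and 0 rose, with a median log2 difference of -0.11 against -0.02 for all tested genes. FRO5, a reductase of iron and copper at the root surface, measured 3.09, 3.84 and 2.77 FPKM in OXmiR400, against 12.2, 10.9 and 13.8 FPKM in wild type. The log2 difference was -1.65 ± 0.26 (SE, adjusted p = 0.0274 in limma) and the groups lay far apart, but the call was lost with no filter on low values (0.0534) and without any 1 library of OXmiR400, or wild type replicate 1 or 3 (up to 0.111), while the log2 difference stayed between -1.76 and -1.57 in these cases. In OXrPPR1, FRO5 measured 3.88, 2.43 and 6.70 FPKM, all below wild type, with -1.39 ± 0.26 (log2, SE, adjusted p = 0.1), and the call was made without OXrPPR1 replicate 3 (-1.69, adjusted p = 0.0222). Its neighbour and close copy FRO4 averaged 4.21 FPKM in OXmiR400, 6.85 FPKM in OXrPPR1, against 7.32 FPKM in wild type (adjusted p = 0.161 and 0.89), so their reads may have been split between them.

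COPT2, a copper importer, measured 19.7, 27.6 and 22.7 FPKM in OXmiR400, 38.1, 37.4 and 34.2 FPKM in OXrPPR1, against 41.7, 31.6 and 42.6 FPKM in wild type. Each OXmiR400 library lay below all others, with a log2 difference from wild type of -0.70 ± 0.15 (SE, adjusted p = 0.0709 in limma), which passed without wild type replicate 2 (-0.84, adjusted p = 0.0384). In roots FRO5 and COPT2 are expressed strongly, and the root marker sums given above were lower in OXmiR400 too. In OXrPPR1 those sums spanned the wild type range. There FRO5 averaged 4.34 FPKM, against 12.3 FPKM in wild type, and COPT2 36.6 FPKM, against 38.7 FPKM. The part of the root markers in these values was not tested. SPL7 itself averaged 12.6 ± 1.57 FPKM in OXmiR400 and 13.7 ± 0.542 FPKM in OXrPPR1, against 14.2 ± 1.38 FPKM in wild type (SD, n = 3 each), with adjusted p = 0.518 and 0.922. The plastocyanin gene PETE2, whose protein is the main copper consumer of the thylakoid, measured 832, 1010 and 862 FPKM in OXmiR400, 791, 924 and 697 FPKM in OXrPPR1, against 689, 692 and 705 FPKM in wild type. Its log2 difference of 0.37 ± 0.14 in OXmiR400 had an adjusted p of 0.229, and that of PETE1 was 0.42 ± 0.21 (adjusted p = 0.353). Other genes of the list went either way in OXmiR400. The copper importer COPT1 measured 76.2, 76.7 and 81.8 FPKM in OXmiR400, against 55.3, 66.6 and 50.9 FPKM in wild type, all higher (0.44 ± 0.17 log2, SE, adjusted p = 0.253 in limma). The metal transporter ZIP2 measured 46.6, 47.9 and 39.5 FPKM in OXmiR400, against 62.9, 97.0 and 98.0 FPKM in wild type, all lower (-0.90 ± 0.23 log2, adjusted p = 0.113), and the copper pump HMA5 gave -0.52 ± 0.16 (adjusted p = 0.156). Among all tested genes, 13.5% had every OXmiR400 library below wild type, and 2154 of 19955 had every one above it. The chaperone CCH and the transporter YSL2 gave -0.32 ± 0.21 and -0.23 ± 0.16 in OXmiR400 (adjusted p = 0.49 and 0.52). In OXrPPR1 against wild type 0 of the 25 genes were called, where 0.0651% of tested genes were, and the median was -0.05. After FRO5 the smallest p there belonged to PAA2, a thylakoid copper pump (0.50 ± 0.14 log2, SE, adjusted p = 0.237 in limma). Between the lines 0 of the 25 genes were called, where 0.0651% of tested genes were, with a median of -0.01.

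Among genes whose proteins are known to act on the dismutases, 4 were tested. In OXmiR400 against wild type 1 of them fell, DJ1A, where 0.356% of tested genes did. DJ1A (AT3G14990), reported to bind and activate CSD1, measured 144, 134 and 153 FPKM in OXmiR400, 200, 173 and 227 FPKM in OXrPPR1, against 235, 260 and 252 FPKM in wild type. The genotypes did not overlap at any step of this order. In OXmiR400, 13.5% of tested genes had all libraries below wild type. In OXrPPR1, 14.7% of tested genes lay apart from wild type in either direction. The share with every step apart was not computed. DJ1A fell in OXmiR400, with a log2 difference from wild type of -0.79 ± 0.12 (SE, adjusted p = 0.0274 in limma), and its value in OXrPPR1 was -0.32 ± 0.12 (adjusted p = 0.405). The call in OXmiR400 was lost without any 1 of the 6 libraries of OXmiR400 and wild type, with adjusted p between 0.0546 and 0.149 and the log2 difference between -0.84 and -0.74. CPN20, a plastid co-chaperonin reported to activate FSD1, averaged 181 ± 5.77 FPKM in OXmiR400, 188 ± 49.5 FPKM in OXrPPR1, against 175 ± 8.09 FPKM in wild type (SD, n = 3 each). The mitochondrial carriers MTM1 and MTM2, linked to manganese loading of MSD1, gave -0.15 ± 0.14 and -0.04 ± 0.14 in OXmiR400 and -0.29 ± 0.14 and -0.12 ± 0.14 in OXrPPR1 (log2, SE, adjusted p from 0.511 to 0.92). MSD2, a secreted relative of MSD1, lay below the filter, at 0.31, 0.34 and 0.648 FPKM in OXmiR400 and 0.64, 0.754 and 1.39 FPKM in OXrPPR1. In wild type it was listed at 0.251, 0 and 0.122 FPKM.

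**Figure D5:**
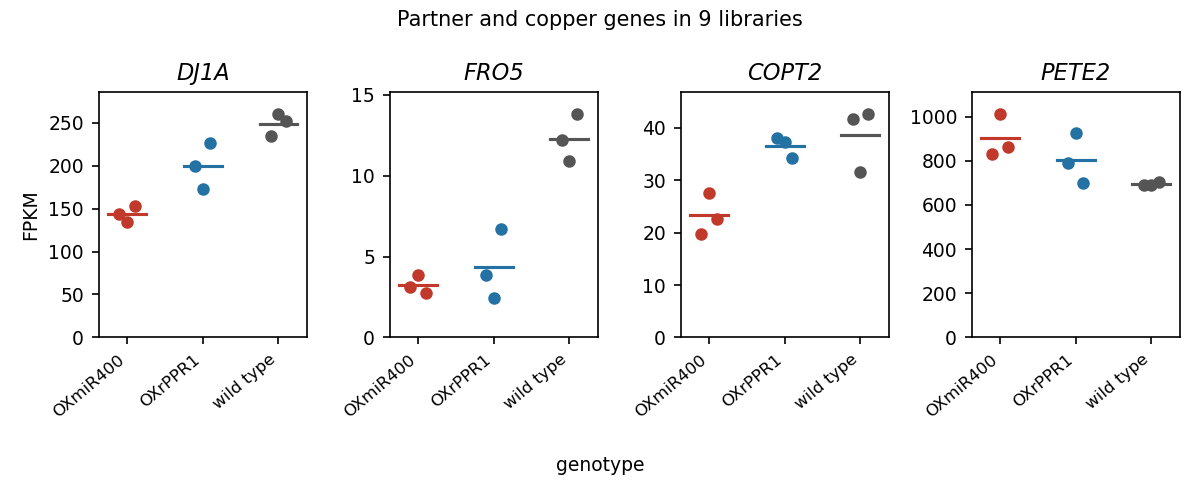
FPKM of DJ1A, FRO5, COPT2 and PETE2 in each of 9 libraries, with a bar at each genotype's mean of 3 libraries and axes starting at 0. DJ1A lies at 134 to 153 FPKM in OXmiR400, 173 to 227 FPKM in OXrPPR1 and 235 to 260 FPKM in wild type.

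Enzymes that remove the hydrogen peroxide made by dismutases completed the set. Of 11 catalase and ascorbate peroxidase genes 10 were tested and 0 were called in any comparison. The share of all tested genes called was 0.571% in OXmiR400 against wild type and 0.0651% in each other comparison. Medians of the list were -0.01 in OXmiR400 and 0.01 in OXrPPR1 against wild type. CAT1, a catalase, measured 19.2, 18.7 and 17.5 FPKM in OXmiR400, against 27.3, 23.6 and 26.5 FPKM in wild type, without overlap (-0.46 ± 0.09 log2, SE, adjusted p = 0.0638 in limma). TAPX, the thylakoid ascorbate peroxidase, measured 27.7, 31.2 and 32.6 FPKM in OXmiR400, against 19.8, 24.1 and 23.5 FPKM in wild type, all higher (0.43 ± 0.15 log2, SE, adjusted p = 0.199). All libraries lay lower in 13.5% of tested genes in OXmiR400 against wild type, and all lay higher in 2154 of 19955. SAPX, a stromal ascorbate peroxidase, gave -0.52 ± 0.18 in OXmiR400 (adjusted p = 0.196) and -0.45 ± 0.18 in OXrPPR1 (adjusted p = 0.418). APX6, a further peroxidase gene of the list, gave 0.22 ± 0.12 in OXrPPR1 (adjusted p = 0.575). Between the lines, CAT1 had the smallest p of the list, at -0.36 ± 0.09 (adjusted p = 0.394), followed by TAPX at 0.25 ± 0.15 (adjusted p = 0.767).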

How the data were processed

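The table was deposited 3 times with identical content, so 1 copy was used. No label or header names its unit. The deposited values were taken as FPKM made by the authors, since FPKM multiplied by exon length summed to nearly the same total in every library. Low values fell on steps, 4 to a unit (tolerance 0.05 of a step), in 99.5% to 99.7% of cases but on whole units in 49.0% to 54.3%, so no count model was used. The submitters' processing notes name GRCm38 and mm10, which are mouse builds. Of 26973 genes, 26513 matched the TAIR10.1 annotation and 26503 had the same start and end. The sources used here give neither aligner nor counting program. RNA was isolated with TRIzol and libraries made with a SMARTer kit, per the labels' protocols.

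The 19955 genes whose mean reached 1 FPKM in some genotype were put on the log2(FPKM + 1) scale. With limma 3.58.1 under R 4.3.3, 1 model was fitted over 9 libraries, using trended and robust variances and Benjamini-Hochberg adjustment over all tested genes. Fold changes on this scale understate those of low genes. Correlations used exact permutation over 362880 pairings (scipy 1.17.1). The limma fit was tested on simulated data. The members, gene lists and tests were chosen with earlier results of these data known. Named genes were the members, the called genes of each list or, where none was called, the 2 with the smallest p-values, and genes named whatever their values: the miR398 loci and COX5B-1, the dismutase partners, SPL7, PETE1, PETE2, COPT2, CCH and YSL2. FRO4, COPT1, ZIP2, HMA5, CASP4, CASP5 and LHCB2.1 were added after their values were seen, as was TAPX in OXmiR400 against wild type.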

Additional observations from a re-analysis of the deposited data

How the results depend on the processing

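Over 17 alternatives and 3 comparisons, the number of the 8 genes called was 0 throughout, and the lowest adjusted p was 0.121 (FSD1 in OXmiR400 against wild type without OXrPPR1 replicate 3, in limma). Of 408 member values, 381 kept their sign and 27, none of them called, did not. The number of all genes called was less stable. For OXmiR400 against wild type it was 114 as reported, 66 with no filter, 216 with only the 6 libraries compared and 8 (without OXmiR400 replicate 2) to 194 (without OXrPPR1 replicate 3) when 1 library was left out. For OXrPPR1 against wild type it was 13, then 8 with no filter, 41 with only the 6 libraries compared and 4 (without OXrPPR1 replicate 1) to 44 (without OXmiR400 replicate 1) with 1 library left out. For OXmiR400 against OXrPPR1 it was 13, then 24 with only the 6 libraries compared and 7 (without OXmiR400 replicate 1) to 18 with 1 library left out. The cause was not tested, beyond the fewer samples or the larger set of genes in these fits. Deviations of same-numbered libraries had correlations of -0.25 to 0.13, with 2 of 9 pairs over 0.1. Differently numbered pairs were not set beside them, and whether same-numbered libraries share a batch was not tested. With a replicate block the count between the lines was 7. Quantile normalization and median centring moved the median of all genes by less than 0.1 on the log2 scale. With 3 libraries a genotype, intervals of the members leave room for moderate differences.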
